A study of Mus musculus with 9 samples.

Results

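Keratin-associated proteins are small structural proteins of the hair shaft, and 57 of the 46517 genes in each deposited table carry a symbol that begins with Krtap. These 57 genes were taken as the family, by symbol alone, and they fall into 27 numbered subfamilies. Their reads were followed in 9 RNA sequencing libraries from 4 cell populations of the growing mouse hair follicle. Only 25 of the 57 genes passed 3 counts in any library, and 8 had enough counts to be tested.

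Hair shaft cells build a scaffold of keratin filaments, and keratin-associated proteins fill the space between the filaments and bind to them, largely through disulfide bonds. Some subfamilies are rich in cysteine and are called high sulfur or ultra-high sulfur, while others are rich in glycine and tyrosine. Most of the genes have a single exon and lie in dense clusters, and hair keratins are known to come on before most of their associated proteins as matrix cells leave the base of the bulb and move up into the shaft.

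The 4 populations were hair follicle stem cells (HFSC, 3 libraries), outer root sheath (ORS, 2 libraries), basal hair bulb (basal HB, 2 libraries) and suprabasal hair bulb (suprabasal HB, 2 libraries). All came from mouse back skin at postnatal day 30, when follicles were in anagen VI, a stage of full hair growth, and were sorted on CD34, Sca-1, Pcadherin, integrin α6, integrin b1 and GFP. Every library carries the same genotype labels: the strain is given as Lhx2-GFP (CD1), the extraction text names K14-H2BGFP, and which allele gave the GFP signal is not settled by them. Sex is given as Mixed, and no treatment is named for any population. The labels give neither the gates nor the mice behind a sample, and nothing says that replicates are separate animals. P-values below therefore rest on spread among libraries that may be technical.

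Total expected counts ran from 25098237 to 88596741 per library, with the 3 HFSC libraries the shallowest at up to 29902799. A floor of 3 counts was worth 0.0339 to 0.120 CPM (counts scaled to the size of the library), and it covers counting error only. Defining markers followed the labels in part: the stem cell gene Cd34 lay at 344 to 411 CPM in HFSC and at most 80.7 CPM elsewhere, and Krt35, a keratin of the early shaft, lay at 1431 and 1581 CPM in suprabasal HB and at most 114 CPM elsewhere. A summed list of 7 bulge genes was as high in ORS (4872 and 5992 CPM) as in HFSC (4944 to 5471 CPM). In TPM (transcript level scaled for length and library), Lhx2 was higher in ORS (2060 and 2382 against 710 to 859), as was Tcf3. Cd34, Krt15 and Sox9 were lower there, and Lgr5 and Nfatc1 met or overlapped. A summed list of 6 outer root sheath genes was lower in ORS (3404 and 4004 CPM) than in HFSC (9299 to 11641 CPM). Only Krt75 in that list was higher in ORS in TPM. Krt6a, a companion layer gene, was at 3.53 CPM or less in ORS against 83.0 CPM or more in HFSC. Marker genes of pigment cells, 8 in number, summed to 14965 and 15277 CPM in suprabasal HB, against 883 to 1321 in basal HB, 75.9 to 327 in ORS and 88.8 to 152 in HFSC. None of these 8 genes was at 0 in any library, and their part in the results was not tested. In HFSC, 2 genes were at 0 in all 3 libraries while above 10 CPM in the other 6, and 8 genes showed the reverse, so population and library set cannot be told apart in comparisons with HFSC.

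The sequences just upstream of the tested genes are shown first, because most of them hold the same short word close to the start. RefSeq windows of 300 bases on GRCm38.p6, from 250 before the start to 50 from it on, were matched by symbol for 51 of the 57 members and for 7 of the 8 tested members, all but Krtap7-1. Each line below gives 120 bases before the annotated start and the first 10 bases after it, 5′ to 3′ on the gene's strand. Capitals mark TATATAA, with the A that follows it where TATAAA overlaps it, or TATAAA alone in Krtap17-1.
Krtap8-1 (chr16:89487943-89488072, minus strand): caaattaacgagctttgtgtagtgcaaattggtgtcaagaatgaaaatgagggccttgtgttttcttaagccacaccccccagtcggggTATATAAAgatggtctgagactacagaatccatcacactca
Krtap11-1 (chr16:89571174-89571303, minus strand): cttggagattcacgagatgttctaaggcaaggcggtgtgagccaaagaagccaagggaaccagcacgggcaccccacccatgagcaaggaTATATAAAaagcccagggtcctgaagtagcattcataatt
Krtap13-1 (chr16:88728742-88728871, plus strand): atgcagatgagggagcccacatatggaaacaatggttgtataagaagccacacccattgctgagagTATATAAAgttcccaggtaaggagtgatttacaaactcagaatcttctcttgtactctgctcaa
Krtap14 (chr16:88826136-88826265, minus strand): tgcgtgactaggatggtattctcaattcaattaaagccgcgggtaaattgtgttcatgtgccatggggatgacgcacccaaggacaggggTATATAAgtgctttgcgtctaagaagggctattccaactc
Krtap15 (chr16:88828889-88829018, plus strand): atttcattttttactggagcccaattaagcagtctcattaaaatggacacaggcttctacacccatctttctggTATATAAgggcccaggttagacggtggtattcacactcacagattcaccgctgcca
Krtap3-3 (chr11:99550854-99550983, minus strand): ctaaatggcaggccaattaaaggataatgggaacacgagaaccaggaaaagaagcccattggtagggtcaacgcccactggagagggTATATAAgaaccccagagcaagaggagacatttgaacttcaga
Krtap17-1 (chr11:99993985-99994114, minus strand): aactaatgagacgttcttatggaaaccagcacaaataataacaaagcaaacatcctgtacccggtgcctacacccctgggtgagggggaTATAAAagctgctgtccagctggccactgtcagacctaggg
The word TATATAA began 30 bases before the start in Krtap14 and Krtap11-1, 31 in Krtap8-1, 33 in Krtap3-3, 46 in Krtap15 and 54 in Krtap13-1, and Krtap17-1 had TATAAA 31 bases before its start. TATAAA, the core of the TATA box, stood on either strand in the windows of 42 of 51 members (82.4%), 4 of the 7 tested ones among them. It stood in 4473 of 32851 promoters of all genes (13.6%). On the gene strand, with its first base 20 to 40 bases before the start, it stood in 31 of 51 members (60.8%) against 1.99% of all promoters. Of the 7 tested members, 3 held it there. TATATAA was chosen after the sequences had been read, and was held by 18 of 51 members (35.3%), 6 of the 7 tested ones, and 3.24% of all promoters. Both strands were searched, and the last 5 letters of TATATAA are the first 5 of TATAAA, so that the words overlap in Krtap8-1, Krtap11-1 and Krtap13-1.

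Words known from factors of shaft differentiation were less frequent among members. CTTTGAA, of the type bound by LEF1, was searched on both strands and found in 9 of 51 members (17.6%) and 5.14% of all promoters. Krtap15 held it 189 and 136 bases before the start, Krtap14 held it 207 bases before, Krtap11-1 held it 241 bases before, and Krtap3-3 had it 18 bases after the start. TTTATG, of the type bound by posterior HOX proteins such as HOXC13, was found on either strand in 17 of 51 members (33.3%) and 11.9% of all promoters, and in 4 of the 7 tested members. A match describes letters only.

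Most of the family was at or near 0. Across the 9 libraries 12 members had no count at all, and 20 more had 1 to 3 counts at most in any library, which makes 32 members within the floor. Of the 25 above it, 11 passed 10 counts. In 9 subfamilies no member passed the floor, namely Krtap2, Krtap4, Krtap5, Krtap6, Krtap20, Krtap21, Krtap27, Krtap29 and Krtap31. Krtap4, with 8 members, and Krtap5, with 5, were the largest of these.

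**Figure D1:**
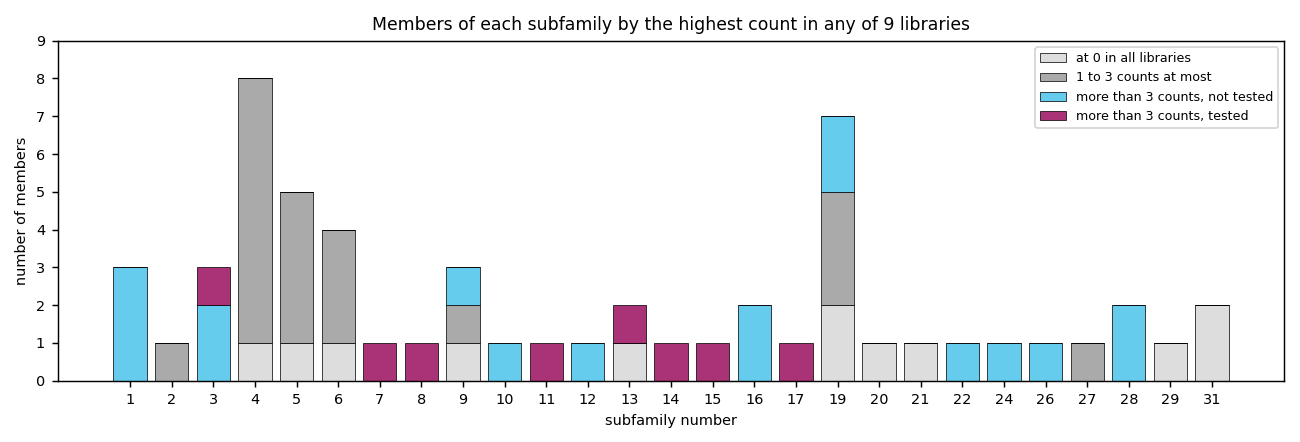
Number of members in each of the 27 subfamilies (horizontal axis), stacked by the highest count reached in any of 9 libraries. Each of the 8 tested members belongs to a different subfamily, while the 8 members of subfamily 4 and the 5 of subfamily 5 stayed at 3 counts or less.

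The protein classes differed in how many members passed the floor, which is given here without a test. The ultra-high sulfur subfamilies 4, 5, 9 and 17, whose proteins are known from the late shaft and its cuticle, had 2 of 17 members above the floor, and Krtap17-1 was the tested one. The high glycine-tyrosine subfamilies 6, 7, 8, 19, 20, 21 and 22 had 5 of 16 members above the floor, and Krtap7-1 and Krtap8-1 were tested. The remaining subfamilies had 18 of 24 members above the floor, with 5 tested. Shared sequence bears on these counts: 32 members share at least 20% of their 25-base words with other gene models, and 11 share none, so reads of near-identical members could have been split or lost in the authors' counting. Krtap19-9a is annotated as a processed pseudogene. Classes follow the subfamily number alone, and no protein composition was computed. Krtap16-3, counted in the remaining subfamilies, shares 25-base words only with members of subfamily 19, of the glycine-tyrosine class, so its place is uncertain.

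Among members that could not be tested, the highest count in any library was 16. Krtap22-2, of the glycine-tyrosine class, had 0, 1 and 0 counts in HFSC, with 5 and 16 for ORS, 5 and 6 for basal HB and 4 and 16 for suprabasal HB. Krtap24-1 had 0 counts in HFSC, with 5 and 1 for ORS, 4 and 2 for basal HB and 13 and 7 for suprabasal HB. The replicates of Krtap22-2 overlapped between ORS, basal HB and suprabasal HB, while those of Krtap24-1 were highest in suprabasal HB. Krtap16-3 reached 10 counts, Krtap1-3 11, Krtap28-10 6 and Krtap28-13 7. When genes with low counts were kept in the fit, Krtap24-1 and Krtap22-2 also passed as higher in suprabasal HB than in HFSC (edgeR adjusted p = 0.0146 and 0.0279), and no fold is given because 3 or 2 of the 3 HFSC libraries had no count. All 49 untested members together summed to 0.363 to 0.580 CPM in HFSC and 0.829 to 1.30 CPM in the hair bulb libraries.

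The family as a whole was more abundant in every hair bulb library than in any library from above it, and the 8 tested members held 92.8 to 99.3% of its counts in every library. The sum was 14.8, 13.95 and 15.01 CPM in HFSC (14.6 ± 0.566, SD, n = 3) and 14.3 and 11.3 CPM in ORS (12.8 ± 2.12, SD, n = 2). It was 116 and 131 CPM in basal HB (123 ± 10.2, SD, n = 2) and 66.2 and 169 CPM in suprabasal HB (118 ± 72.9, SD, n = 2). All 4 bulb libraries lay above all 5 HFSC and ORS libraries, the 2 basal HB libraries lay between the 2 suprabasal ones, and fewer cells of a type and less RNA per cell cannot be told apart in such bulk samples. Krtap8-1 alone held 44.4 to 53.9% of the family's counts in each library. Krtap15 held 35.4 and 39.0% of them in basal HB and 14.6 to 24.8% in the other 7 libraries.

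**Figure D2:**
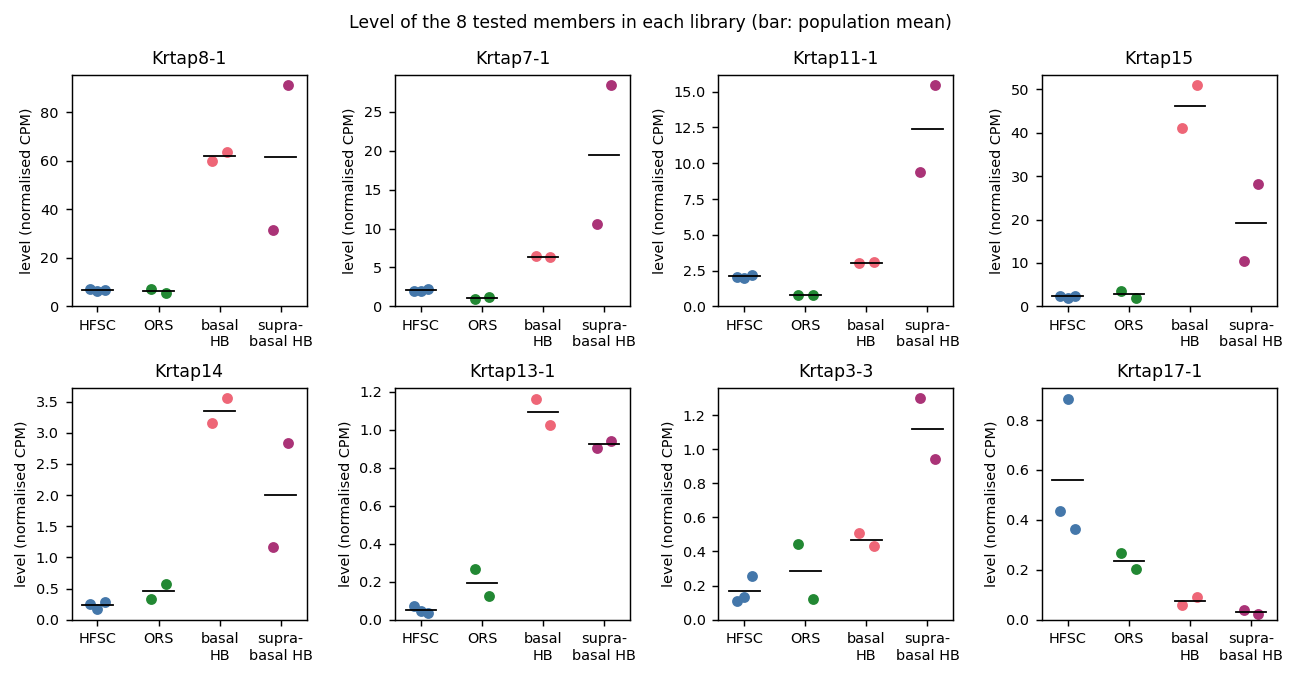
Level of each tested member in normalised CPM (vertical axes, each with its own range) in the libraries of 4 populations. Points are libraries and bars are population means. Krtap8-1, Krtap7-1, Krtap11-1, Krtap15, Krtap14 and Krtap13-1 were higher in every hair bulb library than in any HFSC or ORS library, and Krtap17-1 was highest in HFSC.

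The glycine-tyrosine members come first. Krtap8-1 (ENSMUSG00000059632, chr16:89487379-89487952, minus strand, 1 exon) lay at 6.997, 6.20 and 6.72 CPM in HFSC, with 7.07 and 5.48 for ORS, 59.8 and 63.8 for basal HB and 31.6 and 91.2 for suprabasal HB. It was the most abundant member per length in all 4 populations, with 220.5 ± 5.61 TPM (transcript level scaled for length and library) in basal HB (SD, n = 2). Its HFSC and ORS values overlapped, and the 2 basal HB values lay between the suprabasal ones. Krtap7-1 (ENSMUSG00000056706, chr16:89507703-89508323, minus strand, 1 exon) lay at 1.96, 2.04 and 2.29 CPM in HFSC, with 0.944 and 1.195 for ORS, 6.44 and 6.33 for basal HB and 10.5 and 28.4 for suprabasal HB. No 2 populations overlapped for Krtap7-1, with ORS lowest and suprabasal HB highest.

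Krtap11-1, Krtap15, Krtap14, Krtap13-1 and Krtap3-3 belong to the cysteine-rich group. Krtap11-1 (ENSMUSG00000091212, chr16:89570176-89571183, minus strand, 1 exon) lay at 2.07, 1.99 and 2.22 CPM in HFSC, with 0.782 and 0.804 for ORS, 2.996 and 3.11 for basal HB and 9.38 and 15.5 for suprabasal HB. It took the same order as Krtap7-1, with no overlap between populations. Krtap15 (ENSMUSG00000022931, also known as Pmg2, chr16:88820215-88829844, plus strand) lay at 2.36, 2.04 and 2.47 CPM in HFSC, with 3.56 and 1.999 for ORS, 41.2 and 51.0 for basal HB and 10.4 and 28.2 for suprabasal HB. Its highest libraries were therefore the basal HB ones, above both suprabasal libraries. Of its 1052 exon bases, 201 overlap the long noncoding RNA 4930553J12Rik on the same strand. That RNA has no entry in the deposited tables, so reads from it could have been counted as Krtap15. In all, 16.6% of the 25-base words of Krtap15 recur in other models. Those other than the noncoding RNA, namely 2310034C09Rik, 2310057N15Rik, Gm5965 and Krtap13, had at most 2 counts in any library.

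Krtap14 (ENSMUSG00000074928, also known as Pmg1, chr16:88818667-88826145, minus strand) lay at 0.254, 0.177 and 0.291 CPM in HFSC, with 0.339 and 0.581 for ORS, 3.16 and 3.55 for basal HB and 1.17 and 2.84 for suprabasal HB. Krtap13-1 (ENSMUSG00000056350, chr16:88728862-88729611, plus strand, 1 exon) lay at 0.0725, 0.0443 and 0.0363 CPM in HFSC, which is 2, 1 and 1 counts, with 0.266 and 0.123 for ORS, 1.16 and 1.03 for basal HB and 0.905 and 0.940 for suprabasal HB. Both were highest in basal HB without overlap, as Krtap15 was. Krtap3-3 (ENSMUSG00000069722, chr11:99550130-99550865, minus strand, 1 exon) had 3, 3 and 7 counts in HFSC, with 30 and 11 for ORS, 35 and 29 for basal HB and 69 and 42 for suprabasal HB. It shares 43.4% of its words with other models, all of them from Krtap3-1 and Krtap3-2, so its values are uncertain. Krtap3-1 and Krtap3-2 had at most 5 and 4 counts in any library.

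Krtap17-1, the ultra-high sulfur member tested (ENSMUSG00000078252, chr11:99993234-99993994, minus strand, 1 exon), ran the other way. It lay at 0.435, 0.886 and 0.363 CPM in HFSC, with 0.266 and 0.201 for ORS, 0.0582 and 0.0892 for basal HB and 0.0377 and 0.0224 for suprabasal HB. No populations overlapped, and HFSC was highest. These are 10 to 20 counts in HFSC and 1 or 2 in suprabasal HB, and it was the only tested member that passed the low-count filter through HFSC and ORS alone.

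Per length, the order of the members below Krtap8-1 changed between populations. Krtap15 was second in basal HB (108 ± 8.56 TPM, SD, n = 2) and in ORS (6.32 ± 2.45 TPM, SD, n = 2), followed by Krtap7-1 at 21.2 ± 1.75 and 3.42 ± 0.622 TPM. In HFSC Krtap7-1 was second at 5.28 ± 0.510 TPM (SD, n = 3) and Krtap15 next at 4.12 ± 0.581 TPM, with no overlap. Krtap7-1 was also second in suprabasal HB, at 31.0 and 73.1 TPM, but Krtap15 at 21.8 and 52.7 TPM overlapped it there. Krtap11-1 lay below Krtap14 in basal HB, at 6.02 ± 0.269 against 7.84 ± 0.106 TPM, and in suprabasal HB it lay at 20.04 ± 5.12 TPM, above Krtap14 at 3.80 ± 1.94 TPM.

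Ratios of counts taken within a library do not depend on its total or scaling, and they set basal HB apart for these members. Krtap8-1 over Krtap15 was 2.97, 3.04 and 2.72 in HFSC, with 1.99 and 2.74 for ORS, 1.45 and 1.25 for basal HB and 3.03 and 3.24 for suprabasal HB. Krtap7-1 over Krtap15 was 0.831, 1 and 0.926 in HFSC, with 0.266 and 0.598 for ORS, 0.156 and 0.124 for basal HB and 1.01 in each suprabasal library. Krtap11-1 over Krtap15 was 0.877, 0.978 and 0.897 in HFSC, with 0.220 and 0.402 for ORS, 0.0728 and 0.0610 for basal HB and 0.901 and 0.548 for suprabasal HB. All 3 ratios were lowest in the 2 basal HB libraries, and in the suprabasal libraries Krtap8-1 and Krtap7-1 kept nearly the same ratio to Krtap15 although their levels differed between the replicates. Krtap14 over Krtap15 varied less, from 0.0697 to 0.118 outside ORS, where it was 0.0954 and 0.291. All of these ratios share Krtap15, itself highest in basal HB, as denominator, so they are not separate observations. They were not tested.

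**Figure D3:**
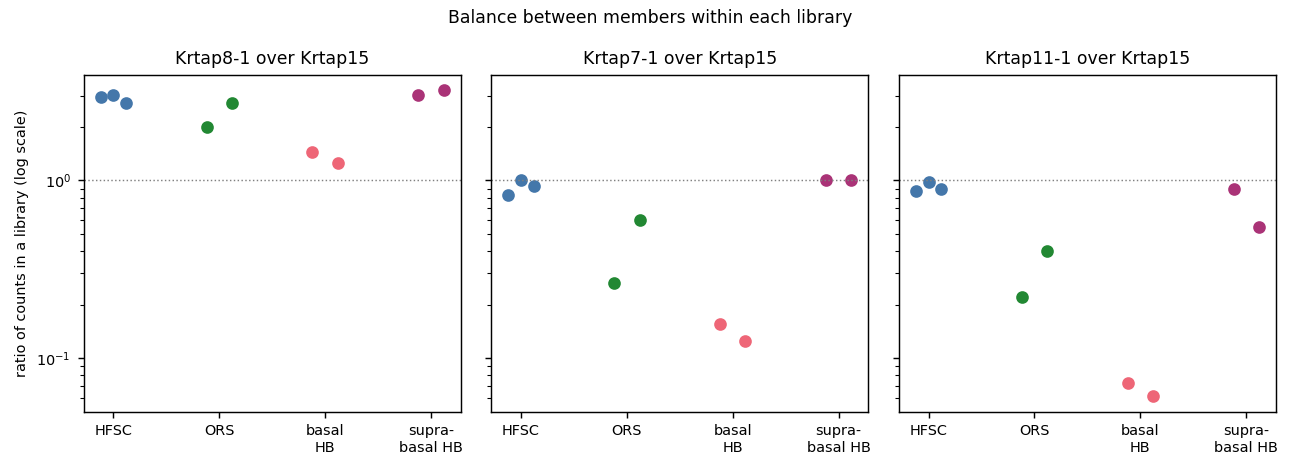
Ratio of counts between 2 members in the same library (vertical axis, log scale) for the 4 populations, with 1 point per library and a dotted line at 1. The 2 basal HB points are the lowest in each panel, at 1.45 and 1.25, 0.156 and 0.124, and 0.0728 and 0.0610. Krtap15 is the denominator in each panel.

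The 6 tested members of chromosome 16 fall into 2 stretches of the genome, and the balance between the stretches was carried largely by Krtap8-1 and Krtap15. That chromosome holds 25 members between 88610705 and 89571183 on mm10, 12 of them above the floor. The lowest coordinates of Krtap13-1, Krtap14 and Krtap15 lie within 91.4 kb of each other. The RefSeq starts of Krtap14 and Krtap15 lie 2.86 kb apart and point away from each other. Those of Krtap8-1, Krtap7-1 and Krtap11-1, all on the minus strand, lie within 82.8 kb of each other by the same measure of lowest coordinates. Between Krtap15 and Krtap8-1, whose lowest coordinates are 667 kb apart, 15 members had at most 16 counts in any library. Of 13 protein-coding genes without a Krtap symbol in the same region, 3 passed the floor and 0 were tested.

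Krtap8-1, Krtap7-1 and Krtap11-1 together gave 51.5 and 135 CPM in suprabasal HB and 69.3 and 73.2 CPM in basal HB. Krtap13-1, Krtap14 and Krtap15 together gave 12.5 and 32.0 CPM in suprabasal HB and 45.5 and 55.5 CPM in basal HB. The first sum over the second was 4.13 and 4.23 in suprabasal HB, 1.52 and 1.32 in basal HB, 2.11 and 2.77 in ORS, and 4.11, 4.53 and 4.01 in HFSC. The 2 suprabasal values lay within the range of the 3 HFSC values, although the sums of both groups of genes were higher in suprabasal HB, and basal HB had the lowest ratios. In every library Krtap8-1 gave most of the first sum and Krtap15 most of the second. The ratio of the sums is therefore largely that of Krtap8-1 over Krtap15 given above, and no separate observation. The grouping by position was made with the levels known and carries no test.

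**Figure D4:**
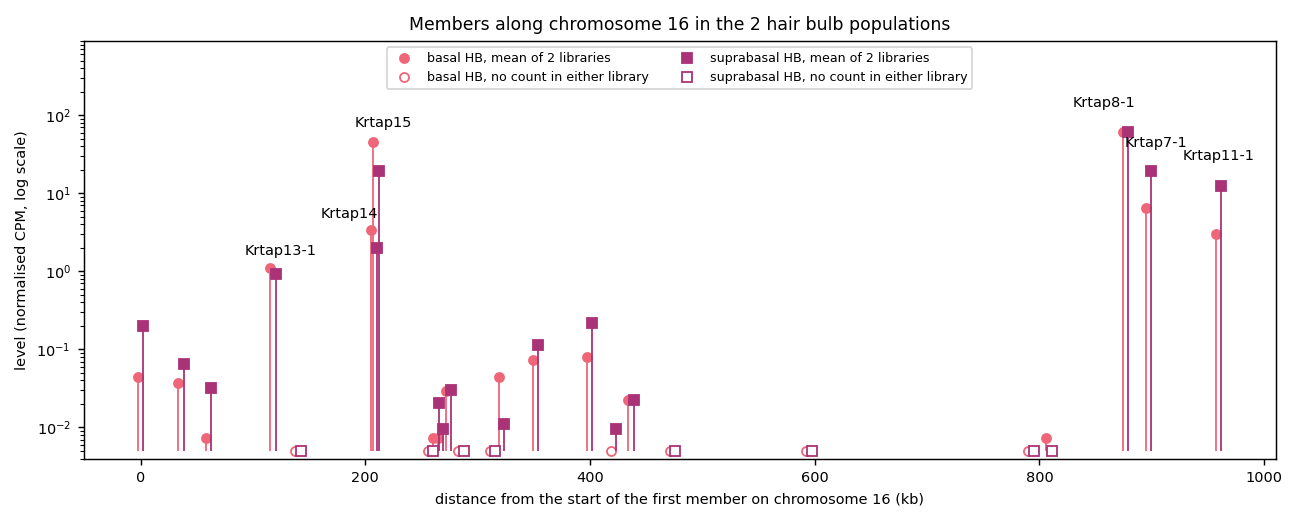
Mean level over 2 libraries (vertical axis, normalised CPM, log scale) of the 25 members on chromosome 16 in basal HB (circles) and suprabasal HB (squares). The horizontal axis is the distance of the gene's lowest coordinate from that of the first member (kb). Symbols of a gene are set slightly apart sideways, and open symbols on the lower edge have no count. Krtap13-1, Krtap14 and Krtap15 were higher in basal HB, Krtap7-1 and Krtap11-1 in suprabasal HB, and the members between the 2 stretches stayed low.

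The comparison of suprabasal with basal HB asks how the family differs between the 2 sorted populations of the bulb. In edgeR's quasi-likelihood test 2 of the 8 tested members were higher in suprabasal HB and 0 were lower. Over all 20491 genes tested 13.1% were higher and 14.8% lower, which is 27.9% called in either direction, so the members' share was near that of all genes. Krtap11-1 was 4.07-fold higher (log2 2.02, SE 0.25, adjusted p = 0.000654), and it stayed past the threshold under every setting and without any 1 library. Krtap7-1 was 3.05-fold higher (log2 1.61, SE 0.39, adjusted p = 0.0154), and this call was lost without basal HB replicate 1 (adjusted p = 0.0953), basal HB replicate 2 (0.0888) or suprabasal HB replicate 2 (0.0889, with log2 0.69). In place of the 0 members called lower in edgeR, Krtap15 passes without adjustment (1 of 8), while DESeq2 called 1 lower and limma on log2(TPM + 1) called 2.

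Krtap15 had a log2 difference of -1.26 (SE 0.41, adjusted p = 0.0520), just outside the threshold, with 10.4 and 28.2 CPM against 41.2 and 51.0. Its call depended on the setting: it passed as lower with DESeq2 size factors (adjusted p = 0.0482), without the low-count filter (0.0161), in DESeq2's Wald test (0.00839), in limma on log2(TPM + 1) (0.0155), and without ORS replicate 1 (0.0387), ORS replicate 2 (0.0383) or suprabasal HB replicate 2 (log2 -2.17, 0.00494). Krtap14 had a log2 difference of -0.75 (adjusted p = 0.226), and Krtap13-1 one of -0.25 (adjusted p = 0.672). Krtap14 passed as lower in limma on log2(TPM + 1) (adjusted p = 0.0387) and without suprabasal HB replicate 2 (log2 -1.55, 0.0423). Krtap3-3 had 1.25 (adjusted p = 0.126, and 0.0336 when only these 2 populations were fitted), and Krtap17-1 -1.20 (adjusted p = 0.328). Values of 7 of the 8 members did not overlap between the 2 populations, 3 of them higher and 4 lower in suprabasal HB, and Krtap8-1 was the exception. Of all genes tested 68.5% did not overlap, 33.9% with suprabasal HB higher and 34.6% with it lower.

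For Krtap8-1 the fitted log2 difference between suprabasal and basal HB was -0.01 (SE 0.38, adjusted p = 0.993), and its sign depended on the libraries. Without suprabasal HB replicate 2 it was -0.996 (adjusted p = 0.00753), and without suprabasal HB replicate 1 it was 0.57 (adjusted p = 0.0349), while without basal HB replicate 2 it was 0.04. The 2 suprabasal libraries differed in most of the abundant members: replicate 2 over replicate 1 was 2.89 for Krtap8-1, 2.71 for Krtap15, 2.70 for Krtap7-1, 2.43 for Krtap14 and 1.65 for Krtap11-1. It was 1.04 for Krtap13-1, 0.723 for Krtap3-3 and 0.594 for Krtap17-1, while the same ratio in basal HB ran from 0.847 for Krtap3-3 to 1.53 for Krtap17-1.

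Other genes measured in these 2 suprabasal libraries moved by different amounts. The summed hair shaft keratins were 1986 CPM in replicate 1 and 2237 CPM in replicate 2, and Foxq1, a forkhead factor of the hair shaft, was 98.0 and 188 CPM. Inner root sheath markers summed to 3539 and 2432 CPM, with 0 of 8 genes higher in replicate 2, and dermal markers to 3933 and 1672 CPM, with 0 of 9 higher. Pigment cell markers were close, at 14965 and 15277 CPM. Immune markers were higher in replicate 2, as the abundant members were, at 46.8 and 104 CPM (4 of 6 genes higher), and so were endothelial and blood markers, at 34.9 and 75.9 CPM (4 of 5 higher). The part of these markers in the members' difference was not tested.

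Basal HB against ORS compares the basal population of the bulb with the outer root sheath. Here 6 of the 8 tested members were higher in basal HB and 0 were lower in edgeR's test (1 at an unadjusted p under 0.05, and 0 in DESeq2 and in limma), where 15.8% of all genes tested were higher, 14.7% lower and 30.5% called in all. Krtap15 was 16.7-fold higher (log2 4.06, SE 0.47, adjusted p = 0.000409) and Krtap8-1 9.86-fold higher (log2 3.30, SE 0.42, adjusted p = 0.00063). Krtap14 was 7.20-fold, Krtap7-1 5.94-fold, Krtap13-1 5.69-fold and Krtap11-1 3.84-fold higher, with adjusted p from 0.000821 to 0.00209. These 6 calls held under every setting and without any 1 library.

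The other 2 members did not pass in basal HB against ORS. Krtap3-3 had a log2 difference of 0.76 (adjusted p = 0.381), with overlapping values, and passed as higher without ORS replicate 1 (log2 1.91, adjusted p = 0.0486). Krtap17-1 had -1.63 (adjusted p = 0.0758) and passed as lower without HFSC replicate 2 (adjusted p = 0.0441). Values of 7 of the 8 did not overlap, 6 of them higher and 1 lower in basal HB. Of all genes tested 67.4% did not overlap, 31.5% with basal HB higher and 35.9% with it lower. The median log2 difference of the 8 was 2.54 against -0.04 over all genes tested. Krtap13-1, counted among the 6, and Krtap3-3 passed the low-count filter mainly through the bulb populations, and Krtap17-1 through HFSC and ORS. The count of calls and the median are therefore no support by themselves, and they make no statement on the 49 others. Summed markers of other cell types were also higher in basal HB than in ORS. Pigment cell markers summed to 1321 and 883 CPM against 327 and 75.9. Inner root sheath markers summed to 4530 and 4823 against 1481 and 883, and interfollicular epidermis markers to 162 and 172 against 37.4 and 30.2. In basal HB, Tchh gave 1312 and 1304 of 1954 and 1830 TPM of the sheath markers. Ivl gave 149 and 146 of 171 and 165 TPM of the epidermis markers. Krt27 and Trps1 were also higher in basal HB, Krt71, Krt28 and Gata3 were higher in ORS, and Krt25 and Krt73 overlapped. Among the epidermis markers, Krt1, Krt10 and Lor overlapped. Dermal and papilla markers summed to 2165 and 1707 CPM against 1624 and 953. In that list the papilla gene Corin lay at 85.6 and 78.0 CPM against 6.96 and 2.42. Dcn ran the other way, at 135 and 130 CPM against 474 and 243, while Col1a1, Col1a2, Lum and Vcan overlapped. The part of these cells in the members' difference was not tested.

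**Figure D5:**
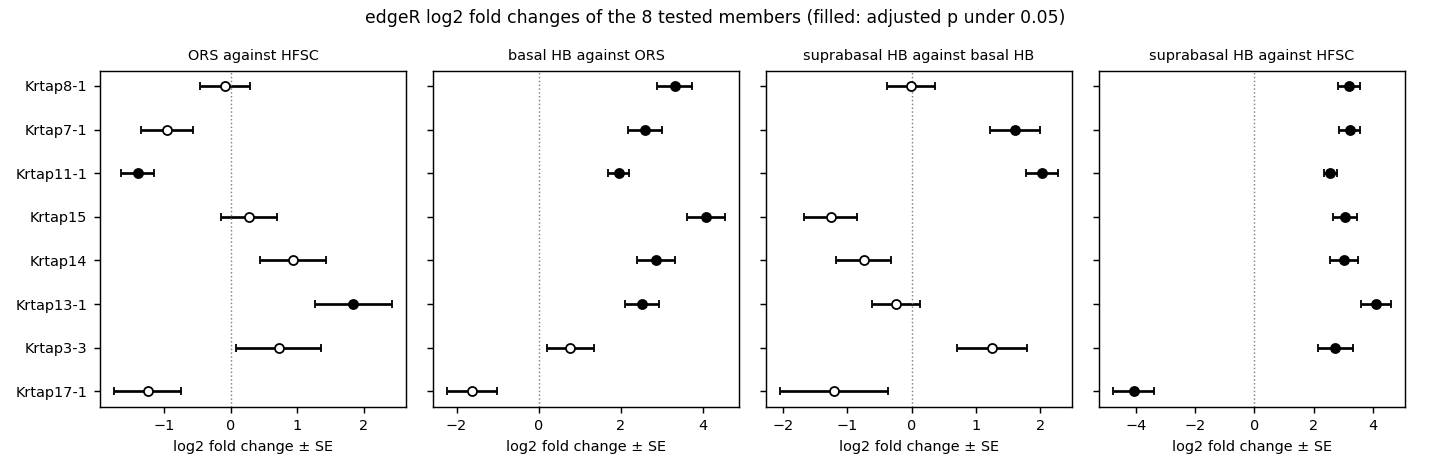
Fitted log2 fold change with its standard error (horizontal axes) of the 8 tested members in 4 comparisons, filled where the edgeR adjusted p was under 0.05. In basal HB against ORS 6 members are filled and positive, in suprabasal against basal HB Krtap7-1 and Krtap11-1 are, and Krtap17-1 is the one negative value in suprabasal HB against HFSC.

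ORS against HFSC, the comparison within the upper follicle, gave 1 member higher and 1 lower, where 18.1% of all genes tested were higher, 23.8% lower and 41.9% called. Krtap11-1 was 2.63-fold lower in ORS (log2 -1.40, SE 0.25, adjusted p = 0.00241) under every setting and without any 1 library. Krtap13-1 was 3.58-fold higher (log2 1.84, SE 0.58, adjusted p = 0.0314) on 18 and 11 counts against 2, 1 and 1, and its call was lost with a replicate block (adjusted p = 0.103), in DESeq2's Wald test (0.0816), and without HFSC replicate 2 (0.0621) or 3 (0.0822), ORS replicate 1 (0.214), or basal HB replicate 1 (0.0525) or 2 (0.0521). When only these 2 populations were fitted Krtap13-1 did not pass the low-count filter.

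Krtap7-1 had a log2 difference of -0.96 between ORS and HFSC (adjusted p = 0.0782), without overlap, and passed as lower with only these populations fitted (0.0419), in DESeq2 (0.0422), and without suprabasal HB replicate 1 (0.00496) or 2 (0.0103). Krtap17-1 had -1.25 (adjusted p = 0.0777), Krtap14 0.93 (0.166), Krtap3-3 0.72 (0.393), Krtap15 0.27 (0.640) and Krtap8-1 -0.09 (0.876). The signs for Krtap8-1, Krtap15 and Krtap3-3 were not kept under all settings or libraries. Values of 5 of the 8 did not overlap, 2 of them higher and 3 lower in ORS, where 61.8% of all genes tested did not overlap (28.3% higher and 33.5% lower). The split of called genes also moved with the scale in this comparison: 43.2% of the genes called over the whole table were higher in ORS in edgeR and 68.5% in limma on log2(TPM + 1), where the median over all genes was 0.13 in place of -0.05. For suprabasal against basal HB the same split went from 46.8% to 20.5%, and the median from 0 to -0.16.

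The last comparison set suprabasal HB against HFSC. All 8 tested members were called, 7 higher and Krtap17-1 lower, where 25.2% of all genes tested were higher, 26.3% lower and 51.5% called. Krtap13-1 was 17.2-fold higher (log2 4.10, SE 0.51, adjusted p = 0.000185), on 48 and 42 counts against 2, 1 and 1. Krtap7-1 was 9.28-fold, Krtap8-1 9.23-fold, Krtap15 8.40-fold, Krtap14 8.14-fold, Krtap3-3 6.65-fold and Krtap11-1 5.92-fold higher. Adjusted p ran from 2.65e-05 for Krtap11-1 to 0.00440 for Krtap3-3. Krtap17-1 was 16.9-fold lower (log2 -4.08, SE 0.70, adjusted p = 0.00128). All 8 calls held under every setting and without any 1 library, and no member's values overlapped, where the values of 67.3% of all genes tested did not (34.1% higher and 33.2% lower). Krtap13-1 and Krtap3-3 had entered the test through the bulb populations and Krtap17-1 through HFSC and ORS, where each was high, so the count of calls is no support by itself. This comparison shares its HFSC libraries with ORS against HFSC and its suprabasal libraries with the comparison within the bulb, and the HFSC libraries stand apart as described above.

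Hair shaft keratins, the filament partners of these proteins, were compared in the same fit. Of 16 keratins in the list 14 were found by symbol and 13 were tested, and 11 rose from basal to suprabasal HB with 0 falling (also 0 at an unadjusted p under 0.05 in edgeR, in DESeq2 and in limma), a median log2 difference of 2.59 against 2.02 for Krtap11-1, the member with the largest rise. The rise was 3.86 on the log2 scale for Krt35, 3.06 for Krt36, 3.001 for Krt31, 2.72 for Krt83, 2.61 for Krt86 and 2.60 for Krt33b. From ORS to basal HB 8 keratins rose and 1, Krt32 (log2 -1.83), fell, with Krt86 at 2.09, Krt83 at 2.05, Krt84 at 2.04 and Krt82 at 2.01. ORS against HFSC gave 2 keratins higher and 2 lower, and suprabasal HB against HFSC 12 higher and 1 lower.

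Per length, summed members and summed keratins stood in a different balance in basal HB than in the other populations. The 57 members summed to 371 and 372 TPM in basal HB, and the 14 keratins to 244 and 188 TPM, a ratio of 1.52 and 1.98. In suprabasal HB the members summed to 179 and 415 TPM and the keratins to 1930 and 1902 TPM, a ratio of 0.0929 and 0.218. The ratio was 0.690, 0.429 and 0.574 in HFSC and 0.462 and 0.949 in ORS. Members therefore outweighed these keratins in both basal HB libraries and in none of the other 7. The ratio was not tested, and 2 of the 16 listed keratins, Krt85 and Krt87, were not matched and are not in the sum.

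A list of 15 regulators of shaft differentiation gave 2 genes higher and 7 lower in suprabasal than in basal HB, beside 13.1% and 14.8% of all genes tested. Foxn1, known to be needed for shaft formation, rose by 1.87 on the log2 scale and Gata3 by 1.01, while Foxq1 fell by 2.26, Barx2 by 2.25, Vdr by 1.81, Prdm1 by 1.62 and Dlx2 by 0.95. Gata3, also in the inner root sheath list, lay at 55.6 and 26.7 TPM in suprabasal HB and 26.0 and 24.9 TPM in basal HB. Suprabasal HB replicate 1 therefore carried most of its rise. Foxq1 lay at 649 and 719 CPM in basal HB, above its 98.0 and 188 CPM in suprabasal HB. Hoxc13, whose protein is known to act on hair keratin and keratin-associated protein genes, was at 496 and 532 CPM in basal HB, 270 and 354 in suprabasal HB, 105 and 118 in ORS and 134 to 150 in HFSC. From ORS to basal HB 7 regulators rose and 4 fell, beside 15.8% and 14.7% of all genes, with Foxq1 at 4.33, Prdm1 at 3.79, Hoxc13 at 2.21, Ovol1 at 1.79, Vdr at -1.99 and Gata3 at -1.80. ORS against HFSC gave 7 higher and 2 lower (18.1% and 23.8% of all genes), and suprabasal HB against HFSC 10 higher and 3 lower (25.2% and 26.3% of all genes).

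Genes of cross-linking and sulfur handling, 15 of 16 tested, had their called members mostly on the basal side. In suprabasal against basal HB 2 were higher and 8 lower: Selenbp1, a selenium-binding protein, rose by 3.62, while trichohyalin (Tchh) fell by 2.68, Padi1 by 2.45, Padi3 by 1.97 and Tgm3 by 1.48 on the log2 scale. The count lower was 4 without basal HB replicate 1 or 2, and 5 without suprabasal HB replicate 1 or 2. Crisp1 was also called lower, from 0.276 and 0.238 CPM in basal HB to no count in suprabasal HB, and Tchh, a cross-linked protein of the inner root sheath and medulla, was at 3817 and 4191 CPM in basal HB against 628 and 622 in suprabasal HB. From ORS to basal HB 9 rose and 2 fell, with Tchh at 5.06, Padi1 at 4.05, Tgm3 at 3.79, S100a3 at 3.68 and Tgm1 at 2.92. ORS against HFSC gave 0 higher in edgeR (0 also at an unadjusted p under 0.05, in DESeq2 and in limma) and 4 lower, and suprabasal HB against HFSC 6 higher and 4 lower. For keratins and cross-linking genes the shares of all genes called in each comparison are those given for the regulators. The lists were drawn up with earlier results of these data known, and their counts are a description.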

How the data were processed

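RNA from 4 sorted populations of mouse hair follicle cells was sequenced as read pairs from an Illumina TruSeq mRNA kit on HiSeq machines, per the labels' protocols. Per the submitters' processing notes, Bowtie2 2.2.9, RSEM 1.2.30 and mm10 were used. The annotation release, parameters and counting strand are not given in the sources used here, so overlapping genes are uncertain. The authors deposited 1 table per sample with expected counts from RSEM, which are estimated reads per gene before any scaling. Beside them stand the deposited TPM, scaled for effective length and library total, and FPKM, which gave no value here. A deposited TPM table of the whole series was not used, and 3 of its columns match no sample label.

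Expected counts were rounded to whole numbers. The 92 spike-in entries, all at 0, were left out of library sizes and tests. Genes were kept by filterByExpr on the 4 populations (minimum count 10), leaving 20491 genes, and scaled by TMM (factors 0.900 to 1.127). All 9 libraries entered 1 quasi-likelihood fit in edgeR 4.0.16 under R 4.3.3, with 4 population means and 5 residual degrees of freedom. Tests were two-sided, p-values were corrected over all genes tested (Benjamini-Hochberg), and the threshold was 0.05. The SE of a log2 fold change is its size over the square root of F. The procedure was tested on simulated data.

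Levels are normalised CPM from these counts, or the deposited TPM where genes are compared per length, with SDs over libraries. Positions come from GENCODE M21 (98.9% of gene identifiers matched, all 57 members among them), and promoter windows from RefSeq on GRCm38.p6. Alternatives were DESeq2 1.42.0 (its Wald test, and its size factors in edgeR), limma 3.58.1 on log2(TPM + 1), no low-count filter, only the populations compared, a replicate block, and leaving out each library. Replicates of a population differed by more than sampling noise (chi-square per degree of freedom from 15.5 to 69.8).

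Named members were the 10 with the highest population mean, every called member, and the 5 untested members with most counts (2 tied for the fifth place). Named companion genes were up to 6 called per list by size of change, given for both comparisons that involve basal HB, with Crisp1 given by level, and Hoxc13 was added after its values were seen. The members and lists were chosen with earlier results of these data known.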

Additional observations from a re-analysis of the deposited data

How the results depend on the processing

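Members called higher in suprabasal than in basal HB numbered 2, and 1 to 3 when 1 library was left out. Members called lower there numbered 0, but 1 in DESeq2's Wald test, with DESeq2 size factors and without the low-count filter, 2 in limma on log2(TPM + 1), and 0 to 3 when 1 library was left out. For basal HB against ORS, 0 to 1 were lower when 1 library was left out. For ORS against HFSC the 1 member higher became 0 in DESeq2's Wald test, with only the populations compared and with a replicate block, and 0 to 1 when 1 library was left out. The 1 lower became 2 in DESeq2's Wald test and with only the populations compared, and 1 to 2 when 1 library was left out. Genes called over the whole table numbered 2729 to 5870 for suprabasal against basal HB and 3425 to 6252 for basal HB against ORS when 1 library was left out, against 5721 and 6245 with all 9.

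Signs turned for 3 members. Krtap8-1 in suprabasal against basal HB ran from -0.996 to 0.57 on the log2 scale over the fits without 1 library, 0.04 without basal HB replicate 2 among them. In ORS against HFSC Krtap8-1 was 0.0042 without the low-count filter and 0.24 in limma on log2(TPM + 1), and -0.27 to 0.092 without 1 library. Krtap15 ran from -0.20 to 0.63 and Krtap3-3 from -0.43 to 1.40 there, lowest without ORS replicate 1. The cause of these changes was not tested.

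The summed level was 13.4 CPM in HFSC and 135 CPM in basal HB with no scaling factor, and 33.5, 38.0, 371 and 297 TPM in HFSC, ORS, basal HB and suprabasal HB. Members with counts numbered 11 above 10 counts, 45 above 0, and 7 above 0.5 CPM in at least 2 libraries.

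Replicate numbers are not said to pair samples. Deviations of same-numbered libraries correlated from -0.11 to 0.12. They correlated at 0.0974 for ORS and basal HB, 0.0680 for ORS and suprabasal HB, and 0.121 for basal and suprabasal HB. With 2 libraries in a population their deviations mirror each other, so these values neither show nor exclude pairing. The replicate block gave 5214, 5875, 7386 and 9518 genes called for suprabasal against basal HB, basal HB against ORS, ORS against HFSC and suprabasal HB against HFSC, and the call it changed among members was Krtap13-1 in ORS against HFSC (1.64 on the log2 scale, adjusted p = 0.103). With 2 libraries in most populations, and 1 left when either is taken out, the lone library is assumed to vary like the others. Members with a few counts could not be compared at this depth.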

Other observations

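Sums over subfamilies whose members were too low to test can be read only as counts. The 3 members of subfamily 1, cysteine-rich proteins of the shaft, summed to 3, 1 and 0 counts in HFSC, with 4 and 1 for ORS, 9 and 19 for basal HB and 4 and 4 for suprabasal HB. Krtap10-4 had 0, 0 and 1 counts in HFSC, with 3 and 3 for ORS, 2 and 10 for basal HB and 0 in both suprabasal libraries. Subfamily 1 was highest in both basal HB libraries, on few counts and with library totals that differ, while the 2 counts of Krtap10-4 in basal HB replicate 1 lay below the 3 in each ORS library. The 2 members of subfamily 28, which lie on chromosome 1, summed to 2, 2 and 0 counts in HFSC, with 6 and 11 for ORS, 10 and 7 for basal HB and 5 and 5 for suprabasal HB. The 7 glycine-tyrosine members of subfamily 19 summed to 1, 0 and 0 counts in HFSC, with 3 and 5 for ORS, 6 and 6 for basal HB and 4 and 3 for suprabasal HB. The 8 ultra-high sulfur members of subfamily 4 summed to 0 counts in both suprabasal libraries, where Krtap8-1 had 1678 and 4078 counts. No population stands out in subfamilies 28, 19 and 4 at this depth.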
